A study of Mus musculus with 12 samples.

Results

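The comparison sets the cerebellum of newborn Ts1Cje mice against that of euploid controls at P0, the day of birth. It uses 4 of the 12 arrays of a study that also sampled both genotypes at P15 and P30 (postnatal days 15 and 30). The members were chosen by their titles: both arrays of the Ts1Cje P0 pool and both of the euploid P0 pool. Ts1Cje mice are trisomic for a distal segment of chromosome 16, and the euploid animals carry the usual 2 copies. The sources used here do not give sex or strain background. At P0, RNA from 3 cerebella per genotype was combined into 1 pool, and each pool was hybridised to 2 Affymetrix arrays. There was thus 1 pool per genotype, the hybridisations are technical repeats, and no difference within P0 has a replicate check. All results at P0 are therefore values, with no test. Of 12488 probe sets on the array, 12422 remained without the control probe sets, and 7453 passed a filter at a mean P0 signal of 20.11. These stand for 5685 named genes, each by its brightest probe set.

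Trisomy of this segment is used as a model of Down syndrome, because it holds mouse counterparts of many genes of human chromosome 21. At birth the mouse cerebellum is a small, rapidly growing structure. Granule cell progenitors divide in an outer layer under the influence of Sonic hedgehog from Purkinje cells, radial and Bergmann glia guide migrating neurons, and myelin is still to come. The cerebellum is closely covered by meninges, and it adjoins the hindbrain and the choroid plexus of the fourth ventricle.

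The first question was how far the pools differed beyond the spread of their hybridisations. A probe set is called here when the mean log2 difference between genotypes is at least 1.5-fold (0.585 on the log2 scale) and both Ts1Cje hybridisations lie on the same side of both euploid ones. By this rule 527 of 7453 probe sets were called (7.07%), of which 264 were higher (3.54%) and 263 lower (3.53%) in Ts1Cje. Among genes the count was 369 of 5685 (6.49%), with 179 higher (3.15%) and 190 lower (3.34%). Without a minimum fold, the hybridisations of both genotypes did not overlap for 44.5% of genes. With 2 arrays against 2, such separation is frequent even where pools do not differ, so this share alone measures no difference. The SD of the genotype difference over probe sets was 0.345. The spread between hybridisations alone would give 0.275 if they varied independently. The second minus the first hybridisation correlated at 0.296 between the pools, so they did not vary independently. Among the 2485 dimmest tested probe sets 11.1% were called, against 3.78% of the 2485 brightest. Hybridisations of the same pool had a Pearson r of 0.967 (euploid) and 0.973 (Ts1Cje) across probe sets. Between genotypes r was 0.953 to 0.972, the highest of these for the first hybridisation of each pool. The count was 1062 without the first euploid and 881 without the first Ts1Cje hybridisation, where the overlap rule has fewer arrays to meet. Median signals of 31.5 to 36.2 did not separate the genotypes. The 3' to 5' ratio of the GAPDH controls was 0.841 and 0.862 in the euploid and 1.07 and 0.987 in the Ts1Cje arrays. For the actin controls it was 1.26 and 1.13 against 1.31 and 1.30. Both ratios were higher in both Ts1Cje arrays, and the part of this in any difference was not tested. Xist, which female cells transcribe from their inactive X, read 1.8 to 6.7 on all 4 arrays.

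Defining genes of the cerebellum were present in both pools. Zic1, a zinc finger factor of granule cells and their progenitors, read 2421 and 2563.8 in the euploid and 2042.5 and 2335.7 in the Ts1Cje hybridisations. En2, a homeobox factor that patterns the region, read 262.3 and 243 against 372.9 and 366.8. Pax6, Neurod1, Calb1 and Rora also passed the filter. Atoh1, the factor that specifies granule progenitors, lay below it, at 1.0 to 6.1.

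Nearly all measured genes of the trisomic segment were higher in the newborn Ts1Cje cerebellum. Of 36 with a probe set, 23 passed the filter, and 22 of these had a positive difference (52.9% of all genes). Of the 23, 6 were called higher (3.15% of all genes) and 0 lower (3.34%). In 19 both Ts1Cje hybridisations lay above both euploid ones, where 22.7% of all genes did. The median difference was 0.48 on the log2 scale (1.40-fold) against 0.02 for all genes, and values ran from -0.013 to 0.91. The signals of the 23 genes summed to 6830 and 6828 in the euploid hybridisations and to 10010 and 9740 in the Ts1Cje ones, so the groups lay well apart. The filter used the mean of all P0 arrays, so a dim gene could pass through its Ts1Cje signal. C2cd2, which was called, and Ifnar2 lay under 20.11 in both euploid hybridisations, and both count among those 19. Because genes had to reach the filter to be counted, these figures describe 23 of the 36 genes and not the segment as a whole. The remaining 13, among them Runx1, Sim2, Kcnj6, Pcp4 and Mx1, were too dim at P0 to be measured.

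The widest gap belonged to Son, a splicing cofactor of nuclear speckles. Its signal was 246 and 223.2 in the euploid and 470.4 and 420.6 in the Ts1Cje hybridisations, a difference of 0.91 or 1.88-fold, and another probe set of Son gave 0.49. Gart, an enzyme of purine synthesis, is the neighbour of Son and is transcribed the other way. It read 84.4 and 98.6 against 137.6 and 126.5, a difference of 0.51, so that the groups did not overlap for either gene of the pair. Their promoters are shown because these neighbours share a short stretch of the segment and were both higher. The sequences are those of RefSeq (GRCm38.p6), from 250 bases before to 50 bases after the start site, 5' to 3' on the strand of the gene, with CCAAT boxes in capitals (CCAAT, or ATTGG on the other strand). Son lies at chr16:91647574-91647873 on the plus strand and Gart at chr16:91646923-91647222 on the minus strand.
Son: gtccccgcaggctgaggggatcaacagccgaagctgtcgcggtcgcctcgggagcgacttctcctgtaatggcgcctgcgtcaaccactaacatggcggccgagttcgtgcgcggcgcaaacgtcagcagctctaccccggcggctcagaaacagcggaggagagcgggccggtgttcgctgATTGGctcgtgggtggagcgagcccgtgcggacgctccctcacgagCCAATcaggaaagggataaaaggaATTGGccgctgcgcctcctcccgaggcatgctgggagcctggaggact
Gart: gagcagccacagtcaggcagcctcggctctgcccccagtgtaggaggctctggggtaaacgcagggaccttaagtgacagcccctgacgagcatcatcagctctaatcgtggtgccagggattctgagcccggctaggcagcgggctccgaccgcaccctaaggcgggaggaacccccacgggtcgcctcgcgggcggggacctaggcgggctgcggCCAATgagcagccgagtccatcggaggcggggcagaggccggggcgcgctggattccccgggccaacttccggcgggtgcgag
The start sites are 852 bases apart. The Son window holds 3 CCAAT boxes and the Gart window 1, where 37.4% of the 32851 promoters of the table hold at least 1 and 3.37% hold at least 3. They have 31 and 26 CG dinucleotides, against a median of 7, and 10.6% and 16.9% of promoters have at least as many. Of the measured trisomic genes 21 have a window in the table, and 10 of these hold a box.

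Other nuclear proteins of the segment stood beside Son. Hmgn1, which binds nucleosomes and loosens chromatin, read 1523.2 and 1665.2 in the euploid and 2490.3 and 2540.1 in the Ts1Cje hybridisations, a difference of 0.66. Paxbp1, a partner of Pax proteins, read 173.2 and 148.5 against 258.5 and 235.1, a difference of 0.61. Both were called, with a clear gap between the groups. Ets2, a transcription factor, differed by 0.28 without overlap (44 and 51.4 against 57.1 and 60.4). Setd4, a SET-domain protein, differed by 0.42. Chaf1b, a subunit of a histone chaperone, gave -0.013, and its euploid hybridisations of 19 and 43.8 enclosed both Ts1Cje values.

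Enzymes and protein-handling genes of the segment were also higher. Cbr1, a carbonyl reductase, read 96.8 and 72.9 in the euploid and 166.1 and 122 in the Ts1Cje hybridisations (0.73). Psmg1, a proteasome assembly chaperone, read 59.3 and 79.5 against 129.2 and 104.2 (0.72). Both were called, as was C2cd2 at 0.73, a dim gene with 19.6 and 16 against 46.8 and 22.2. Ttc3, a ubiquitin ligase, read 1510.4 and 1420.5 against 2079.9 and 2164.8, a difference of 0.53 that fell short of the 1.5-fold rule. Atp5o, part of the ATP synthase of mitochondria, differed by 0.38 without overlap, with 814.2 and 1024.9 against 1117.6 and 1261.7. Vps26c, an endosomal sorting protein, gave 0.39, and 0.76 in another probe set. Tmem50b, a membrane protein, gave 0.55, while a dim probe set of it below the filter gave -0.84. Sh3bgr (0.21) and Smim11 (0.19) were dim, and their groups overlapped.

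Signalling genes followed. Rcan1, an inhibitor of calcineurin, read 334.2 and 274.4 in the euploid and 448.9 and 441.1 in the Ts1Cje hybridisations (0.55). Itsn1, an endocytic scaffold, read 210.5 and 234.5 against 292.9 and 308.5 (0.43). Neither group pair overlapped. Dyrk1a, the kinase that opposes calcineurin signalling on NFAT factors, read 842.1 and 616.9 against 1087.5 and 711.8, a difference of 0.29 with overlap. A dimmer probe set of Dyrk1a gave 0.54 without overlap. The 4 receptor chains of the interferon and interleukin 10 families differed in the same direction without overlap: Ifnar2 by 0.52, Ifngr2 by 0.48, Ifnar1 by 0.41 and Il10rb by 0.38. Ifnar1 read 85.4 and 102.2 against 129.3 and 121.6, and the dim Ifnar2 19.6 and 18.5 against 33.5 and 25.6.

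**Figure D1:**
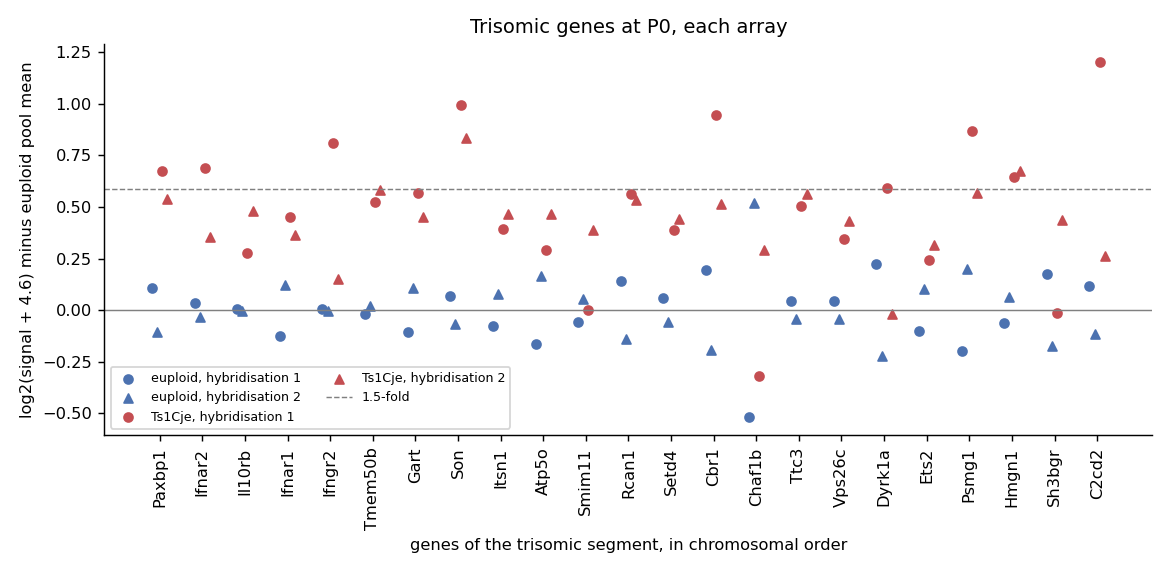
Value of each measured trisomic gene on each P0 array, as log2(signal + 4.6) minus the mean of the euploid pool. Genes run along the horizontal axis in chromosomal order, and the dashed line marks 1.5-fold. Euploid is in blue and Ts1Cje in red, with circles and triangles for the first and second hybridisation. In 19 of 23 genes both red points lie above both blue ones; Chaf1b, Dyrk1a, Sh3bgr and Smim11 overlap.

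Along chromosome 16 the shift lay at Sod1 and beyond it. Sod1 itself is counted neither with the distal nor with the proximal genes. The 23 measured genes distal to Sod1 had the median of 0.48, and 95.7% were positive. The 148 genes proximal to it had a median of 0.06 with 58.8% positive. Of these, 5 were called higher (3.15% of all genes) and 1 lower (3.34%). On the other chromosomes, 5506 genes had a median of 0.02 and 52.6% were positive. Sod1, the cytosolic superoxide dismutase at the border of the segment, read 426.9 and 445.8 in the euploid and 683.2 and 675.9 in the Ts1Cje hybridisations. Its difference of 0.63 (1.55-fold) was above the 0.33 at P15 and 0.35 at P30. Of 11 measured neighbours in 2 copies, 1 was called higher (3.15% of all genes): Gabpa, an ETS-family transcription factor (0.66). App, the amyloid precursor gene, gave 0.02.

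**Figure D2:**
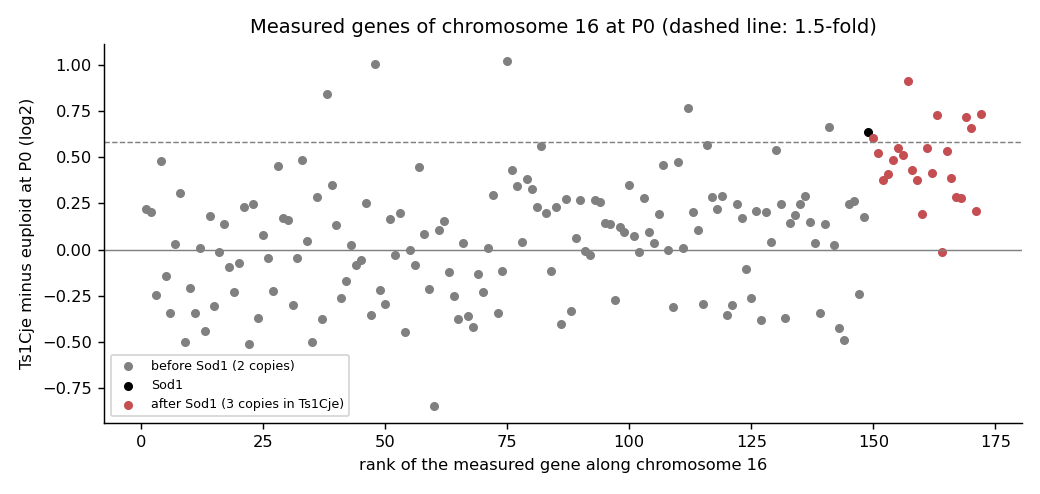
Difference at P0 (Ts1Cje minus euploid, log2) of each measured gene of chromosome 16 against its rank along the chromosome, with the dashed line at 1.5-fold. The 23 genes distal to Sod1 have a median of 0.48 and the 148 proximal ones a median of 0.06.

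The largest negative differences of all 5685 genes were those of the Hox genes Hoxa5 and Hoxb5. Hox factors give the hindbrain and spinal cord their identity along the body axis, and the anterior hindbrain that forms the cerebellum is known to be free of them. Of 9 measured Hox genes, 7 were called lower in Ts1Cje and 0 higher, where 3.34% of all genes were called lower. Hoxa5 read 263.6 and 239.8 in the euploid and 30.4 and 32.3 in the Ts1Cje hybridisations, a difference of -2.83, or 7.12-fold lower. Hoxb5 read 143.5 and 195.7 against 34.2 and 22.9, or 5.27-fold lower (-2.40). Both genes, members of the same paralogous group, were separated by a wide gap. Hoxb6 read 74.5 and 104.5 against 31.3 and 42.5 (-1.18), again without overlap. The 4 others were dimmer and closer together: Hoxc4 at -0.79, Hoxa2 at -0.72, Hoxb3 at -0.72 and Hoxb7 at -0.59. Hoxa4 (133.6 and 159.6 against 108 and 202.4) and Hoxb8 (94.2 and 75.2 against 86.4 and 88.9) overlapped, with 0.02 and 0.05.

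None of the other measured genes of the hindbrain list was called lower. Gata3, a transcription factor of serotonergic and other brainstem neurons, read 67.2 and 58.5 in the euploid and 128.9 and 90.8 in the Ts1Cje hybridisations, and was called higher (0.75). Slc6a4, the serotonin transporter, gave 0.50 without overlap (69.6 and 77.2 against 96.3 and 116.1). Gata2 (-0.05), Th, the rate-limiting enzyme of catecholamine synthesis (0.22), and Prph, a neuronal intermediate filament (0.07), were not called. The 7 genes of the list below the filter were dim and all had negative differences, among them Isl1 (-0.56), Phox2a (-0.35) and Slc18a3 (-0.16) beside Hox genes. Over all 14 measured of 21 genes on the array the median was -0.32 (-0.18 without the first and -0.53 without the second Ts1Cje hybridisation). With a filter on all 12 arrays, which tests other genes of the list, it was -0.01. The summed signal of the 14 was 1203 and 1242 in the euploid and 771 and 899 in the Ts1Cje hybridisations. Hoxa5 and Hoxb5 hold most of that gap, and 6 of the 14 genes were positive. With 1 pool per genotype, genotype and pool cannot be told apart. The part of this marker set in other differences at P0 was not tested. At P15 Hoxa5 had low signals in both genotypes (16.4 and 13.4 against 26.9 and 21.8), and at P30 they were 30.5 and 30.3 against 13.8 and 10.4.

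**Figure D3:**
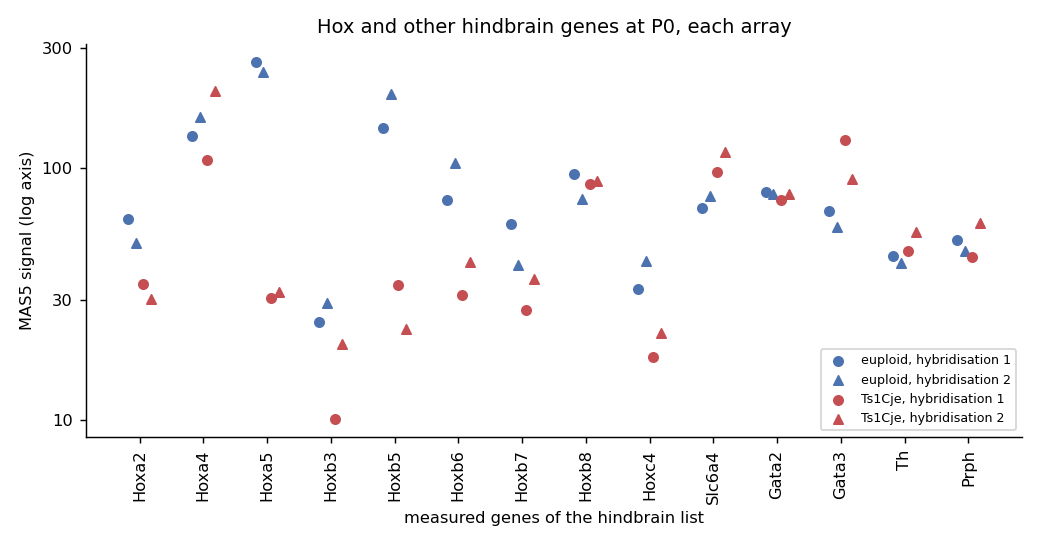
Signal of the 14 measured genes of the hindbrain list on each P0 array, on a log axis, with genes along the horizontal axis, euploid in blue and Ts1Cje in red, and circles and triangles for the first and second hybridisation. Hoxa5 and Hoxb5 show the widest gaps, with red points at 22.9 to 34.2 and blue points at 143.5 to 263.6, while Hoxa4 and Hoxb8 overlap and Gata3 is higher in red.

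Genes that pattern the cerebellum and its borders lay mostly on the other side. Of 13 measured, 10 were positive with a median of 0.47, 3 were called higher (3.15% of all genes) and 1 lower (3.34%). En1, the partner of En2, read 134.9 and 137.9 in the euploid and 208.5 and 212.4 in the Ts1Cje hybridisations (0.61). En2 gave 0.54, short of the rule but without overlap. Gbx2, a factor on the hindbrain side of the midbrain border, was lower, with 64 and 66.3 against 34.5 and 44.1 (-0.68). Neurod1, which drives granule neuron differentiation, read 27.3 and 28.6 against 47.5 and 60.8 (0.84). The summed signal of the list did not separate the genotypes (3701 and 3809 against 3556 and 4024), since Zic1, its brightest member at P0, gave -0.19. The median was 0.16 without any filter, 0.14 without the second Ts1Cje hybridisation and 0.26 without the second euploid one. Zic2 was called higher at 1.01 (48.2 and 39.5 against 101.6 and 84.3), but another probe set of Zic2 went the other way by -1.35 (32.6 and 29.9 against 10.1 and 8.9), so its direction is uncertain. Of 7 measured midbrain and forebrain genes, En1 and the forebrain factor Six3 (0.70) were called higher (3.15% of all genes). The median of the 7 was -0.01 (-0.16 without any filter, and 0.14 without the second euploid hybridisation).

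Genes of tissues that cover or adjoin the cerebellum were called in both directions. In a bulk sample, fewer cells of a type and less RNA per cell cannot be told apart. Of 23 measured genes of meninges and connective tissue, 4 were called higher and 0 lower (3.15% of all genes were called higher), and 21 were positive (52.9% of all genes), with a median of 0.30 (0.45 without the second euploid hybridisation). Their summed signal was 4547 and 4963 in the euploid and 6139 and 6502 in the Ts1Cje hybridisations. The 4 called genes encode matrix proteins. Col3a1, a fibrillar collagen, read 86.9 and 62.4 against 158.2 and 127.5 (0.91, and 0.91 in another probe set). Col1a1 read 152.8 and 165.4 against 272.1 and 324.3 (0.88, with 0.41 in another probe set). Col4a1, a basement membrane collagen, read 437.6 and 453.1 against 724.8 and 679.5 (0.65). The groups were apart for all of these, as for the proteoglycan decorin, Dcn (0.74). Igf2, a growth factor of the meninges, gave 0.45 without overlap (1376.1 and 1268.3 against 1693.6 and 1923.8). Ptgds, the meningeal prostaglandin D synthase, gave 0.39. Crabp2, a retinoic acid carrier, ran the other way at -0.50.

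Vessel genes were partly higher, and genes of choroid plexus and blood lower. Of 12 endothelial and pericyte genes (median 0.25), 3 were called higher (3.15% of all genes) and 0 lower (3.34%). They were Vwf, the clotting protein von Willebrand factor, at 80.8 and 75.4 in the euploid and 132.2 and 118 in the Ts1Cje hybridisations (0.65), Emcn (0.72) and Anxa3 (0.83). Cldn5, a tight junction protein of brain endothelium, gave 0.08. In the choroid plexus list, Ttr, the thyroxine carrier made by its epithelium, read 357 and 361.3 against 142.9 and 137.1, or 2.52-fold lower (-1.33). Folr1, a folate receptor, was also called lower (-1.10), where 3.34% of all genes were. The median of the 6 measured genes was -0.35 (-0.17 without the second and -0.52 without the first euploid hybridisation). Kl, another epithelial marker, was below the filter at 1.4 to 3.3. The blood list had 6 measured genes, 2 of them called lower (3.34% of all genes), and a median of -0.45. Hbb-b2, a beta globin, read 1140.9 and 1143 against 737.3 and 682.2 (-0.68), and Hba-a1, an alpha globin, read 3303.8 and 3703.8 against 2653.3 and 2405.3 (-0.47). Alas2, the erythroid enzyme that starts heme synthesis, gave -0.70. The part of red blood cells, meninges or choroid plexus in other differences was not tested.

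Of 9 measured microglial genes, 2 were called lower (3.34% of all genes) and 8 were negative, where 52.9% of all genes were positive, with a median of -0.34 (-0.22 without the second euploid hybridisation) and summed signals of 730 and 821 in the euploid against 581 and 644 in the Ts1Cje hybridisations. Complement genes led: C1qa read 94.8 and 92.3 against 67.8 and 51.6 (-0.62), and C1qb 78.7 and 91.5 against 46.2 and 51 (-0.75). Both were called lower, although another probe set of C1qb gave 0.25. Csf1r, the receptor that microglia need to survive, gave -0.19. The interferon receptor chains of the trisomic segment were higher. Of 13 measured interferon response genes, 2 were called lower (3.34% of all genes) and 0 higher (3.15%). Their median was -0.19, but 0.05 without the second euploid and -0.08 without the first Ts1Cje hybridisation. The called ones were Ifi27 (-0.99) and Adar, an RNA-editing enzyme (-0.83). B2m, which pairs with MHC class I heavy chains, gave 0.11.

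Among 26 genes of astrocytes and Bergmann glia, 3 were called lower (3.34% of all genes) and 0 higher (3.15%). Of the 26, 9 were positive (52.9% of all genes), with a median of -0.07. Aldoc, a glycolytic enzyme of astrocytes, read 601.3 and 734.3 in the euploid and 396.3 and 400 in the Ts1Cje hybridisations (-0.73). Slc1a2, a glutamate transporter, gave -0.65 at low signal. Glul, the glutamine synthetase, read 347.9 and 319.3 against 142.5 and 153.1 (-1.15), but another probe set of Glul overlapped at 128.1 and 150.9 against 148.9 and 165.1 (0.17). The Glul difference thus rested on 1 probe set. Apoe, a lipid carrier, gave -0.30 without overlap (2349.9 and 2634 against 1988 and 2053.9), and Gdf10, a secreted factor of Bergmann glia, 0.52. None of 6 measured myelin genes was called (6.49% of all genes), and Mbp gave -0.15.

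Calls in the neuronal lists are set beside the share of all genes called, 6.49%. Of 12 measured genes of granule progenitors and Sonic hedgehog signalling 1 was called (8.33%), Zic2, whose probe sets disagreed in direction. Of the 12, 8 were positive (52.9% of all genes), and the median was 0.25 (0.07 without any filter). The hedgehog receptor Ptch1 gave 0.29 and its target Mycn 0.31, while Ccnd1, a cyclin of progenitors, gave -0.18. Gli1, Gli2, Gli3 and Ccnd2 were below the filter. Of 34 cell division genes 1 was called (2.94%), Hmgb2, a chromatin protein (0.80). Its euploid hybridisations differed from each other by more than the groups (54.8 and 22.6 against 62.2 and 69). The median of the 34 was 0.07 (-0.04 without the first euploid and -0.08 without the second Ts1Cje hybridisation). Pcna, the replication clamp, gave 0.39.

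Purkinje cell genes had 2 calls among 15, both higher (3.15% of all genes), and a median of 0.13 (-0.04 without the second Ts1Cje hybridisation). Car8, a carbonic anhydrase-related protein of Purkinje cells, read 174.2 and 95.8 in the euploid and 354.2 and 233.8 in the Ts1Cje hybridisations (1.13, or 2.18-fold). Lhx5, a factor of their differentiation, read 35.3 and 35.8 against 56.8 and 69.7 (0.75). The groups did not overlap for either. The calcium-binding proteins Calb1 (0.17) and Pvalb (-0.03) were not called. Of 8 genes of mature granule cells 1 was called higher (3.15% of all genes), the homeobox gene Uncx (0.86). Cbln1, a synapse organiser, gave 0.04, and Gabra6 was below the filter at 2.2 to 6.8. None of 9 genes of GABA interneurons and none of 3 of unipolar brush and nuclear neurons was called (6.49% of all genes).

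Genes of immature neurons were balanced, with 12 of 25 positive and a median of -0.03. Neurod1 was called higher (3.15% of all genes), and 2 genes of the growing axon were called lower (3.34%). Dpysl3, a growth cone phosphoprotein, read 593.1 and 420 in the euploid and 254.9 and 228.2 in the Ts1Cje hybridisations (-1.04). L1cam, an adhesion molecule, gave -0.81. Doublecortin, Dcx, was 0.22, and Tubb3, a neuronal tubulin, -0.22. Synaptic genes lay lower, with 7 of 22 positive and a median of -0.20 (-0.13 without the first euploid hybridisation). Of the 22, 4 were called lower (3.34% of all genes) and 1 higher (3.15%). The lower ones encode proteins of vesicle traffic. Cplx1, a complexin, read 218.1 and 271.3 against 96.9 and 139 (-1.04), and Nsf, the ATPase that recycles SNARE complexes, 216.6 and 236.9 against 144.5 and 153.8 (-0.59). Syt11, a synaptotagmin, read 157.7 and 219.9 against 84.4 and 62.9 (-1.30). Vamp1, a vesicle SNARE, gave -1.85 from low signals of 40.4 and 64.5 against 16.5 and 6.8, and a dimmer probe set of it gave 0.70. Snap25, a membrane SNARE, gave -0.22, and Sh3gl3, an endophilin, was called higher (0.93). Of 16 ionotropic receptor genes, Gabra3 (-1.05) and Grik2 (-0.77) were called lower (3.34% of all genes) and Chrna7 (0.91) higher (3.15%). They encode subunits of a GABA-A, a kainate and a nicotinic receptor, and the median was 0.08.

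Lists of general cell functions had medians from -0.06 to 0.17, against 0.02 for all genes. Called were 2.04% of oxidative phosphorylation, 4.17% of ribosomal protein, 20% of cholesterol and 12% of stress genes, against 6.49% of all genes. Of 49 genes of oxidative phosphorylation 1 was called, Uqcrc1, a subunit of respiratory complex III (714.3 and 861.8 against 514.9 and 521.6, -0.59), and the median was -0.06. Uqcrc2, of the same complex, gave 0.50 without overlap. Of 24 ribosomal protein genes 1 was called, the dim Rps13 (-0.88), and the median was -0.01. Cholesterol synthesis had a median of 0.05 over 15 genes, with Msmo1 higher (0.59) and Fdps (-0.78, and -0.70 in another probe set) and Dhcr7 (-0.66) lower. Fdps, which makes farnesyl diphosphate, read 652.3 and 812.5 in the euploid and 407.9 and 434.3 in the Ts1Cje hybridisations. Stress and immediate early genes gave 0.17 over 25 genes, with Klf4 (0.80) and Egr2 (0.75) called higher and Egr1 (-0.60) lower.

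**Figure D4:**
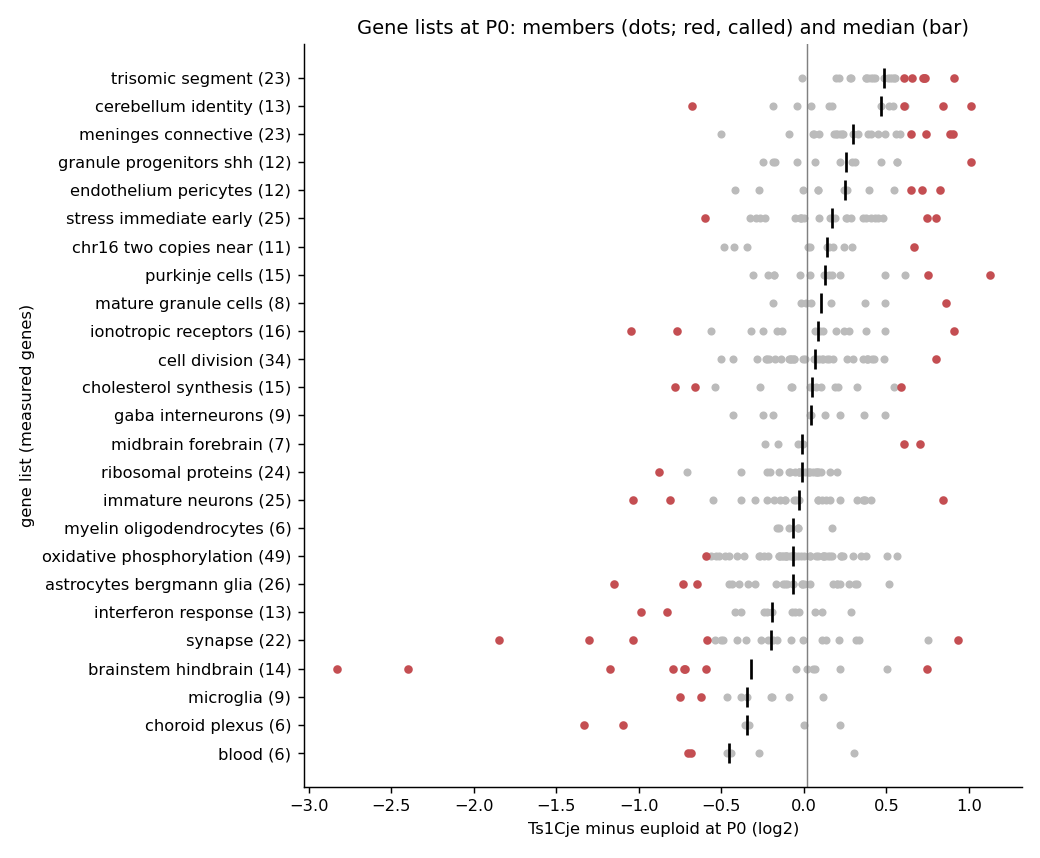
Difference at P0 (Ts1Cje minus euploid, log2) of every measured gene in the lists with at least 5 measured genes, as dots, red where called, with the median of each list as a bar and that of all genes, 0.02, as a vertical line. The trisomic segment has the highest median (0.48), blood the lowest (-0.45), and Hoxa5 of the hindbrain list is the farthest point at -2.83.

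The genes with the clearest separation of hybridisations were ranked by the smallest of their 4 array-against-array differences. The first 15 in each direction are described, and this ranking chose them, so their separation is no result. Most were dim, with median signals of 42.9 for the higher and 38.0 for the lower genes. Among the higher ones, Son alone was trisomic. Cdca7l, a Myc-interacting nuclear protein, read 24.5 and 25.3 in the euploid and 54.1 and 55.1 in the Ts1Cje hybridisations (2.01-fold higher). Cav1, the coat protein of caveolae, read 50.5 and 38 against 106.6 and 97.8 (1.14). Gas1, a surface protein that aids hedgehog reception, read 89.5 and 83.9 against 154.4 and 157.8 (0.82). The ranking fixed the gaps of these genes. Ccn2, a matrix growth factor (1.13), Efnb1, an ephrin (0.87), Cebpd (0.84) and Myb (0.86), which are transcription factors, Cd79a (0.89), Cep250, a centrosome protein (1.30), and Slc35g3 (1.51) followed, with Col1a1 and Zic2 above. Gnb1, a G protein subunit, read 272.2 and 282.6 against 507.8 and 519.8 (0.88), but its other probe sets gave 0.38 and -0.46. Mdfi, an inhibitor of myogenic factors, gave 1.27 in 1 probe set and -0.11 in another. In both euploid hybridisations Mdfi, Cd79a, Myb, Cep250 and Slc35g3 lay under the filter of 20.11, so they passed it through their Ts1Cje signal.

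Lower genes beside Hoxa5, Hoxb5, Ttr, Glul, Vamp1, Syt11 and Gabra3 came from several functions. Urm1, a modifier of transfer RNA, read 61.7 and 58.7 in the euploid and 17.1 and 10.8 in the Ts1Cje hybridisations (-1.83). Nolc1, a nucleolar chaperone, read 51.3 and 64.4 against 16.2 and 11.3 (-1.77). Agt, angiotensinogen, which astrocytes make in brain, read 148.7 and 220.8 against 58.1 and 80.7 (-1.35). These gaps, too, were fixed by the ranking. In both Ts1Cje hybridisations Urm1, Nolc1, Cd300c2, Vamp1 and Gabra3 lay under the filter of 20.11, so they passed it through their euploid signal. Pus1, a pseudouridine synthase, gave -1.09, the immune receptor Cd300c2 -1.70, Commd5 -1.55, Abcf2 -1.24 and 2210016L21Rik -0.93. Just outside the 15, Limd1 stood at 0.94 and Syngr1, a synaptic vesicle protein, at -0.94.

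The later stages come from other pools and give these 30 genes a separate measurement. The P15 pools differ in ways the P0 pools do not. Xist read 3.8 and 1.4 in the euploid and 105.6 and 77.6 in the Ts1Cje P15 hybridisations. Dlx1, a forebrain interneuron factor, read 0.5 and 0.9 against 77.5 and 64.9, where it was 1.8 to 5.0 at P0. Their part in the P15 values was not tested. Of the 15 higher genes, 7 were also positive at P15 and 11 at P30, where 51.1% and 49.5% of all tested genes were positive. Of the 15 lower genes, 0 were negative at P15 and 11 at P30. At P15, 11 of the 15 lower genes were higher in Ts1Cje without overlap (21.7% of all genes), and at P30 2 were (19.2%). Cdca7l kept its direction with 1.14 at P15 and 0.65 at P30, as did Son with 0.51 and 0.81. Pus1 stood at 1.85 and -0.04, Urm1 at 1.21 and -0.59, and Hoxa5 at 0.57 and -1.08.

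**Figure D5:**
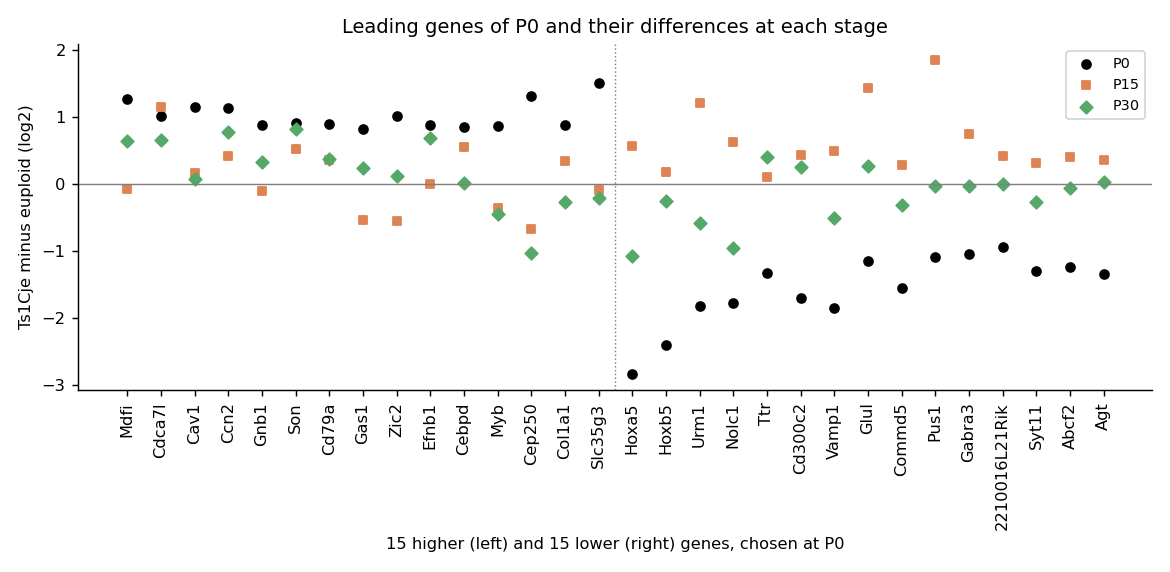
Ts1Cje minus euploid difference (log2) at P0 (black), P15 (orange) and P30 (green) of the 15 higher and 15 lower genes chosen at P0, with genes along the horizontal axis. All 15 lower genes lie above 0 at P15.

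Whether a P0 difference departed from that of the later stages was tested with limma on all 6 pools. The difference at P0 was set against the mean of those at P15 and P30, which left 1 residual degree of freedom (prior degrees of freedom 6.19). That residual is the gap between the P15 and P30 genotype differences. It takes in whatever sets the P15 pools apart, and holds no spread among pools of 1 genotype and stage. Of 7453 probe sets 0 were called at an adjusted p of 0.05 (0%), the smallest adjusted p was 0.543, and 551 had an unadjusted p under 0.05 (7.39%). With the first hybridisation of each pool alone 4 were called, among them Tef, Tradd and Zfp787. Hoxb5 departed most on the lower side by p, with -2.36 ± 0.34 (SE, limma adjusted p = 0.543), and Ttr followed with -1.58 ± 0.25. Hoxa5 had -2.58 ± 0.63 (adjusted p = 0.634) and Glul -1.99 ± 0.44 (adjusted p = 0.634). On the higher side Car8 had 1.49 ± 0.25 and Cep250 2.15 ± 0.40 (limma adjusted p = 0.543 for both). None of these passed correction. Son had 0.25 ± 0.25 and Hmgn1 0.26 ± 0.22 (limma adjusted p = 0.828 and 0.795). The trisomic list had medians of 0.48 at P0, 0.43 at P15 and 0.48 at P30.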

How the data were processed

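RNA from pooled cerebella was measured on Affymetrix arrays. The authors deposited linear signal intensity values computed with MAS5, per the submitters' processing notes, and the sources used here do not give its version or settings. Judged by the values, each P0 array had been scaled to a trimmed mean of about 99.98. No scanner files or detection calls were used here, and precision is limited by the number of arrays.

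Values were taken as log2(signal + 4.6), the 20th percentile of all values, so differences of dim genes are understated. Control probe sets (66) and those with a mean P0 signal under 20.11, the 40th percentile, were left out. Of 12422 probe sets 10833 had 1 symbol in the platform annotation, 396 several and 1193 none, and 10817 matched RefSeq (GRCm38.p6). Both hybridisations of a pool were averaged. The labels number the hybridisations but do not say that a number pairs pools.

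The members and the 27 gene lists were chosen with earlier results of these data known. Genes named are the 15 per direction with the widest separation, all measured trisomic genes, and for each list its called and brightest members and defining markers; genes named outside this rule were chosen after their values were seen. A difference between stages was tested with limma 3.58.1 in R 4.3.3 (lmFit, eBayes with trend), adjusted by Benjamini-Hochberg. The p-values rest on how far the genotype differences at P15 and P30 disagreed in these pools, and not on spread among like pools. The calculations were tested on simulated data. Alternatives were other pseudocounts, filters and scalings, and leaving out each hybridisation. Figures used matplotlib 3.10.9.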

Additional observations from a re-analysis of the deposited data

Results flagged for a closer look

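Some of the genes with the clearest separation at P0 were separated the other way by all hybridisations of a later stage. Each difference below is Ts1Cje minus euploid on the log2 scale at the later stage, and the change between the stages was not tested for these pairs alone. Among genes higher at P0, the P15 values were -0.078 for Mdfi, -0.11 for Gnb1, -0.54 for Gas1 and -0.55 for Zic2. At P30 they were -0.45 for Myb and -0.27 for Col1a1. Among genes lower at P0, the P15 values were 0.57 for Hoxa5, 1.21 for Urm1, 0.49 for Vamp1, 1.42 for Glul, 0.28 for Commd5 and 1.85 for Pus1. They were 0.74 for Gabra3, 0.41 for 2210016L21Rik, 0.31 for Syt11, 0.39 for Abcf2 and 0.35 for Agt. At P30 the value was 0.40 for Ttr and 0.26 for Glul.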

How the results depend on the processing

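The count of 527 called probe sets was 307 with a pseudocount of 16, 1216 without a filter on signal, where 726 were higher and 490 lower, and 698 to 1062 with 1 hybridisation left out. A replicate block was taken as values and not as a blocked fit: 260 probe sets passed 1.5-fold in both pairs of same-numbered hybridisations, of which 251 were among the 527. This rule asks for the fold in each pair, which is more than in the mean, but it does not ask for the absence of overlap. The rules thus differ, and the lower count cannot be put down to the pairing. The labels do not say that these numbers pair the pools, and the deviations of same-numbered hybridisations correlated at 0.296. Limma's comparison with the later stages gave 4 calls with the first hybridisation of each pool only and 0 under its other alternatives. The trisomic median was 0.41 with a pseudocount of 16 and 0.42 without a filter. Without a filter, list medians moved to 0.067 for granule progenitors, 0.026 for immature neurons, -0.070 for ionotropic receptors, -0.37 for blood and 0.16 for cerebellum identity. With a filter on all 12 arrays, which tests other genes, the hindbrain median was -0.013.

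With 1 hybridisation left out, medians ranged from -0.12 to 0.0066 for astrocytes, 0.14 to 0.35 for cerebellum identity, -0.091 to 0.084 for cholesterol synthesis and 0.029 to 0.23 for the neighbours on chromosome 16. They ranged from 0.18 to 0.36 for endothelium, -0.071 to 0.064 for immature neurons, -0.25 to 0.054 for interferon response and -0.12 to 0.079 for ionotropic receptors. The ranges were 0.23 to 0.45 for meninges, -0.28 to 0.057 for myelin, -0.11 to -0.00056 for oxidative phosphorylation and -0.039 to 0.25 for Purkinje cells. Cell division ran from -0.083 to 0.19, and midbrain and forebrain from -0.13 to 0.14. For stress genes the range was 0.12 to 0.27, and for synapse genes -0.26 to -0.13. The cause of these moves was not tested. Of 250 list medians under alternatives, 220 moved by less than the spread of hybridisations, while 23 had the opposite sign, in 11 of 25 lists. Of 298 values of the 30 genes ranked by separation 274 moved by less than that spread, and their direction was fixed by how they were chosen. For a single gene, leaving out 1 hybridisation cannot move the value by more than that spread. Those settings therefore say nothing about the stability of these genes.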
